A study of Mus musculus with 15 samples.

Results

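The 15 expression arrays of this series were ranked by a macrophage marker mean, and the 5 arrays at the top of the ranking were set against the 5 at the bottom, 10 of 15 arrays in all. The marker mean of an array was the mean log2 ratio, in the authors' deposited table, of all 13 probes for 8 genes: Adgre1 (also called Emr1 or F4/80), Csf1r, Cd68, Tyrobp, Fcer1g, Laptm5, C1qa and C1qb. Because both sets were chosen by measured ratios of these same arrays, every difference between them is given as a description, with no test. The sets were made to ask how far macrophage RNA in the cultures moves with the other genes on the arrays.

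The samples were mouse embryonic fibroblasts, cells grown out of embryos at 13.5 days of development, on a C57B6 strain background and at passage 3. There were 4 arrays of wild type cells, 4 of p27 knock-out cells, 4 of stathmin knock-out cells and 3 of double knock-out cells lacking both genes, described in the labels as biological replicates. All cultures were at high confluence and had spent 24 h without serum. Each array measured the sample in red against a reference in green made of pooled fibroblast RNA, so a value of 0 means a level equal to that of the pool, and the dyes were not swapped. The Stmn1 product stathmin destabilises microtubules, and the Cdkn1b product p27 inhibits cyclin-dependent kinases. How many embryos went into a culture is not given in the labels.

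Macrophages seed the embryo from the yolk sac and the fetal liver and live in connective tissue beside fibroblasts, so primary fibroblast cultures can carry some of them. They depend on the receptor CSF1R, whose ligand CSF1 is made by fibroblasts. Tyrobp and Fcer1g encode signalling adaptors of phagocyte receptors, Laptm5 and Cd68 encode lysosomal membrane proteins of blood cells and macrophages, and C1qa and C1qb encode chains of the complement protein C1q. In RNA of a whole culture, fewer cells of a type and less RNA per cell cannot be told apart.

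The marker mean ran over 3.88 log2 units, from 1.45 on p27 knock-out 2 to -2.44 on p27 knock-out 3. The top 5 arrays were p27 knock-out 2 at 1.45, double knock-out 3 at 1.17, p27 knock-out 4 at 0.46, double knock-out 2 at -0.08 and p27 knock-out 1 at -0.19. The bottom 5 arrays were stathmin knock-out 1 at -1.18, stathmin knock-out 4 at -1.72, wild type 1 at -1.73, double knock-out 1 at -2.03 and p27 knock-out 3 at -2.44. The array just outside the top set was wild type 2 at -0.54, a gap of 0.35, and the one just outside the bottom set was wild type 3 at -1.08, a gap of 0.10. Stathmin knock-out 2 and 3 (both at -0.98) and wild type 4 (-1.02) also lay between. Ranking by ratios computed from the scanner intensities, or with 1 value per gene, chose the same 5 and the same 5 arrays.

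All 5 top arrays lacked p27, and so did the 2 lowest arrays of the series. The 7 arrays without p27 thus held both ends of the ranking, from -2.44 to 1.45, while the 8 arrays with p27 lay from -1.73 to -0.54. The marker mean averaged -1.09 ± 0.49 over the 4 wild type arrays (SD, here and next), -1.21 ± 0.35 over the 4 stathmin knock-outs, -0.18 ± 1.65 over the 4 p27 knock-outs and -0.32 ± 1.61 over the 3 double knock-outs. The bottom set held 2 stathmin knock-outs and 1 array of each other genotype. Slides 1 to 4 gave 1, 1, 1 and 2 arrays to the top set and 3, 0, 1 and 1 to the bottom set. The part of genotype and slide in the differences between the sets was not tested, and values within p27-lacking arrays and within slides are given beside the results.

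**Figure D1:**
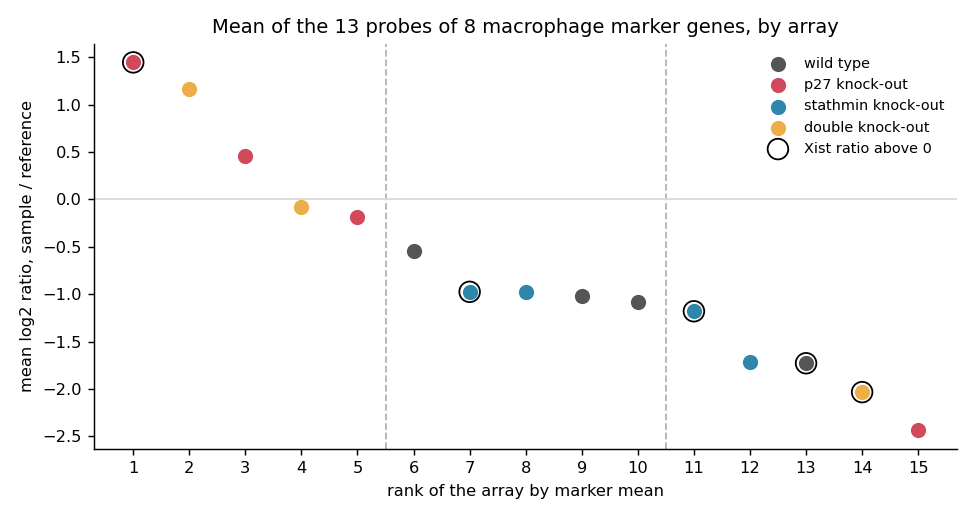
The mean log2 ratio of the 13 marker probes (vertical axis) against the rank of the array (horizontal axis), 1 point per array coloured by genotype, with dashed lines around the middle 5 arrays and rings on arrays with an Xist ratio above 0. The 5 top arrays, from 1.45 to -0.19, all lack p27, and the lowest point, p27 knock-out 3 at -2.44, lacks it as well.

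Some facts of the arrays bear on what follows. Xist, the RNA of the inactive X chromosome, had a ratio above 0 on 1 of 5 top arrays (p27 knock-out 2), on 1 middle array (stathmin knock-out 2) and on 3 of 5 bottom arrays (stathmin knock-out 1, wild type 1 and double knock-out 1). Wild type 1 also carried the Y-linked genes at a mean ratio of 0.08, whereas the other 4 Xist-high arrays had them at -3.86 to -3.63. Wild type 3 and 4 correlated across genes at 0.84 against at most 0.65 for any other pair, and neither is in the compared sets. The first tested Stmn1 probe did not separate the genotypes. It read -0.50 to 0.33 on wild type, -0.85 to -0.06 on stathmin knock-out and -0.41 to -0.04 on double knock-out arrays. The second Stmn1 probe read 0.64 to 0.87 on wild type arrays and -2.98 to -2.64 on stathmin knock-out arrays, with the double knock-outs at -2.82 to -2.68. The tested Cdkn1b probe did not separate the p27 knock-outs, which read -1.10 to 0.05 against -0.22 to 0.93 in wild type. A dimmer Cdkn1b probe that was not tested read 0.22 to 0.36 in wild type, -0.20 to -0.10 in p27 knock-out, -0.18 to -0.08 in double knock-out and -0.13 to 0.53 in stathmin knock-out, and where the knock-out allele lies relative to the probes is not given in the labels. Of the fibroblast genes, 0 of 25 tested were counted as different between top and bottom arrays, where 0.797% of all genes were, with list means of -0.19 to 0.87 on the top and -0.10 to 0.66 on the bottom arrays. On the arrays with low Xist alone, 1 of the 25 was counted as higher and 4 as lower, where 1.98% and 2.71% of all genes were.

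The 8 genes of the rule show what the ranking selected. Adgre1, the F4/80 antigen of mouse macrophages, had log2 ratios of 4.06, 0.99, -0.52, -0.91 and -1.47 on the top arrays in rank order, and of -3.37, -1.97, -3.73, -5.09 and -5.44 on the bottom arrays. The sets did not overlap, and p27 knock-out 2 stood far above every other array. On the tested probe, the raw sample signal of Adgre1 ran from 402 on p27 knock-out 3 to 180587 on p27 knock-out 2. Tyrobp, the adaptor DAP12, read 1.71, 1.28, 0.28, -0.40 and 0.01 on the top and -1.59, -2.54, -2.05, -3.01 and -3.44 on the bottom arrays. Its raw reference signal stayed between 5640 and 6908 on the 15 arrays while its sample signal ran from 874 to 35166, so its ratios followed the sample channel. Csf1r, the receptor for CSF1, read 1.36, 1.70, 0.22, 0.16 and 0.22 on the top and -1.94, -2.19, -1.90, -1.33 and -2.58 on the bottom arrays. Double knock-out 3, not p27 knock-out 2, was highest for Csf1r, as it was for C1qa and C1qb. C1qb read 0.29, 1.32, 0.65, -0.03 and 0.06 on the top and -1.24, -2.81, -2.21, -3.04 and -2.89 on the bottom arrays.

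Over the 5 against 5 arrays the difference of the means was largest for Adgre1, at 4.35 on the log2 scale, followed by Tyrobp (3.10), Fcer1g (2.93), C1qb (2.89), Csf1r (2.72), Cd68 (2.22), C1qa (2.19) and Laptm5 (1.79). The Adgre1 means were 0.43 ± 2.22 and -3.92 ± 1.40 (SD, n = 5 each), the widest spread within the sets among the 8 genes. Laptm5 was well above background on 5 top arrays but on only 2 bottom arrays. The probes of a gene did not all follow: the dimmest Csf1r probe, well above background on 9 arrays, differed by -0.05, against 2.72 and 1.96 for its other probes. The second Adgre1 probe, which was not tested and was well above background on 3 arrays, differed by 0.84. Within slides the direction of these genes was fixed by the choice of the sets, and the median difference of the 8 was 1.82 on slide 1, 2.80 on slide 3 and 3.05 on slide 4.

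Outside the rule, 18702 genes were tested, and a gene was counted when the top 5 and bottom 5 arrays did not overlap and their means differed by at least 1 on the log2 scale. By this measure 148 genes were higher on the top arrays, 0.791% of those tested, and 1 gene was lower, 0.00535%, together 0.797%. With 1 array left out in turn the count of higher genes was 149 to 196 and that of lower genes 2 to 18, the 18 without p27 knock-out 2. With 7 against 7 arrays 30 genes were higher and 0 lower, and with only probes well above background on all 15 arrays 88 were higher. The excess of higher over lower genes depended on the count rule and the arrays, with 262 higher and 92 lower by size alone, 504 and 418 with genotype as a term, and 371 and 507 on the arrays with low Xist. The median difference over all genes was -0.01 after normalization. The differences of the 148 genes ran from 1.02 to 4.47 with a median of 2.15, and 144 of the 148 had their middle-array mean between those of the top and bottom arrays. In the separate channels the median difference of the 148 was 2.24 in the sample and 0.10 in the reference. Of 53 other tested probes for 48 of these genes, 52 differed in the same direction and 38 met the count rule by themselves. The exception was a second probe of Tmem273, at -0.37. Within slides 1, 3 and 4, where the count rule fixes the direction, the median difference of the counted genes was 1.14, 1.83 and 2.25. In 60 of the 148 genes the sample was not well above background on at least 1 bottom array, and in 4 genes (Clec4b1, Il7r, Cd86 and Ms4a14) on all 5, so that their differences rest on bounds: at least 4.39-fold, 3.08-fold, 2.73-fold and 2.33-fold higher, against the lowest signal well above background.

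The 6 lists of macrophage genes (receptors and surface proteins, signalling and cytoskeleton, oxidase and enzymes, resident and scavenger genes, transcription factors, and chemokines and cytokines) held 140 tested genes of 152 listed, and 62 of them were counted as higher and 0 as lower, with a median difference of 1.44. With 7 against 7 arrays 13 were counted as higher. The lists made up 62 of the 148 counted genes, Ccl12 and Hmgcs1 belonged to other lists, and 84 were in no list. On the p27-lacking arrays alone, the 5 top arrays against the 2 bottom ones, 79 of the 140 were counted as higher and 0 as lower, where 1.59% of all genes were higher and 1.01% lower. These arrays are part of the compared sets, so genes that did not overlap between the sets could not overlap here. On arrays with low Xist alone, 4 against 2 and again part of the sets, 72 were higher and 8 lower, where 1.98% and 2.71% of all genes were. The macrophage list mean ran from -0.37 to 1.51 on the top and from -1.52 to -0.80 on the bottom arrays, so these did not overlap.

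Receptors and surface proteins were the macrophage group counted most often, with 24 of 35 tested genes higher and a median of 2.56. Ptprc, the pan-leukocyte phosphatase CD45, read 2.16, 2.12, 0.76, 0.14 and -0.41 on the top and -2.11, -2.12, -1.94, -3.28 and -3.64 on the bottom arrays. The sets did not overlap, with the middle arrays between them, and Ptprc was well above background on 5 top and 4 bottom arrays. The difference of the Ptprc means was 3.57. Ms4a7, a membrane protein of macrophages, differed most in the group, at 3.99, with means of 1.02 ± 0.82 and -2.98 ± 1.13 (SD, n = 5 each). The C-type lectin genes Clec4d and Clec5a followed at 3.83 and 3.69, and the membrane protein gene Ms4a6d at 3.66. Other Clec5a probes differed by 2.09, which met the count rule, and by 0.76, which did not. The Fc receptors that bind immunoglobulin G were also counted, Fcgr2b at 3.01, Fcgr3 at 2.69 and Fcgr1 at 2.65. Another Fcgr1 probe differed by 2.09 but did not meet the count rule. Fcgr3 read 1.43, 1.62, 1.20, 0.12 and 0.36 on the top and -1.04, -1.53, -1.66, -2.04 and -2.44 on the bottom arrays, without overlap. The integrin chains Itgam and Itgb2, which form the phagocyte complement receptor, differed by 2.80 and 2.33. The phagocytic receptor Trem2, which signals through the product of Tyrobp, differed by 2.46.

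Other surface receptors overlapped between the sets. The chemokine receptor Cx3cr1 (1.28) and the purinergic receptor P2ry12 (1.38) were not counted because the sets overlapped. For Cx3cr1 the overlap came from p27 knock-out 2, first in the ranking, and for P2ry12 also from double knock-out 2. P2ry12 read -0.76 on p27 knock-out 2 and 1.36 on double knock-out 3, and it was not well above background on any bottom array, so that its difference is a bound of at least 2.32-fold. The toll-like receptor Tlr2, which fibroblasts also make, differed by -0.03.

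The signalling and cytoskeleton group had 22 of 34 tested genes higher, with a median of 1.95. Lcp1, the leukocyte actin-bundling protein L-plastin, read 2.05, 2.12, 0.69, 0.34 and -0.17 on the top and -1.95, -2.38, -2.44, -3.66 and -3.75 on the bottom arrays. Its difference of 3.84 was the largest of the group. Vav1, a guanine nucleotide exchange factor of blood cells, read 2.09, 1.53, 0.74, 0.03 and -0.40 on the top and -1.51, -1.78, -1.37, -2.34 and -2.84 on the bottom arrays. The sets of Vav1 did not overlap, and their means differed by 2.76. The adaptor Lcp2 (2.99), the WAVE complex subunit Nckap1l (2.73) and the lipid phosphatase Inpp5d (2.68) were counted as well. Lyn and Syk, kinases not limited to blood cells, were not counted, at 0.16 and 0.74, and Arhgdib, a regulator of small GTPases, had a difference of -0.80.

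Of the phagocyte oxidase and enzyme genes 6 of 19 were higher, with a median of 1.00, which was 0.51 without p27 knock-out 2, 0.66 without stathmin knock-out 1 and 1.61 without p27 knock-out 4. Ctss, the lysosomal protease cathepsin S, had the largest difference of all genes outside the rule, 4.47. It read 2.56, 1.68, 0.65, -0.20 and -0.17 on the top and -2.47, -2.59, -3.25, -4.53 and -4.98 on the bottom arrays and the middle arrays lay between these. The lysozyme genes Lyz1 and Lyz2 differed by 4.15 and 3.93. They are near-identical copies whose probes may read each other's RNA, and Lyz2 was saturated on 1 array. Part of both differences lay in the reference channel. Its log2 means on the top and bottom arrays were 15.60 and 16.17 for Lyz1 and 16.47 and 17.82 for Lyz2. The Lyz2 sample means were 17.85 and 15.27, and another Lyz2 probe differed by 3.04. The cytosolic oxidase subunit Ncf4 differed by 2.51. Cybb, the membrane subunit of the same oxidase, overlapped between the sets, with 3.42 on p27 knock-out 2, 0.11 on double knock-out 3 and -1.19 to -1.14 on the other top arrays, against -2.71 to -1.09 on the bottom arrays. The broadly expressed lysosome genes gave 0 of 30 counted, with a median of 0.16.

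Resident and scavenger macrophage genes gave 7 of 19 higher, with a median of 1.16. Msr1 and Cd36, scavenger receptors, differed by 3.64 and 3.26, and Stab1, a receptor of resident macrophages, by 3.15. Mrc1, the mannose receptor, read 0.44, 2.56, 1.11, -0.01 and -0.09 on the top and -1.51, -2.68, -1.47, -3.13 and -3.79 on the bottom arrays. Double knock-out 3 was its highest array, and the difference of the Mrc1 means was 3.32. C1qc, which encodes a further chain of C1q, differed by 2.94. Pf4, a chemokine of platelets that macrophages also make, differed by 3.03. The platelet list, with 5 of 9 genes tested, gave 0 counted, where 0.797% of all genes were. The cell source of the Pf4 RNA was not tested. Lyve1, a hyaluronan receptor, was well above background on 4 top and 1 bottom arrays and differed by 0.32.

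Among macrophage transcription factors 1 of 17 was counted, with a median of -0.07 that ran from -0.16 without p27 knock-out 2 to 0.22 without double knock-out 1. It was Irf8, a regulator of the monocyte and macrophage lineage, with a difference of 1.96. Irf8 read 1.12, 1.42, 1.05, 0.22 and -0.23 on the top and -0.75, -1.30, -1.15, -1.46 and -1.57 on the bottom arrays. Another tested Irf8 probe differed by 1.21 and did not meet the count rule, because the sets overlapped on it. Spi1, which encodes the macrophage master regulator PU.1, was near the limit of detection, well above background on 4 top arrays and 1 bottom array. It read 1.25, 0.19, -0.22, -0.52 and -0.07 on the top arrays and -1.0 to -0.60 on the bottom arrays. These did not overlap, but the difference of 0.93 missed the minimum of 1. Cebpb, Runx1 and Elf1, which other cells use as well, differed by -0.67, -0.13 and -0.07.

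Of the chemokines and cytokines that macrophages make, 2 of 16 were counted, with a median of 0.37. This median rested on single arrays: it was -0.01 without p27 knock-out 2, 0.22 without double knock-out 2, 0.75 without stathmin knock-out 4 and 0.90 without p27 knock-out 4. On the arrays with low Xist it was -0.49, with 2 of 16 higher and 5 lower, where 1.98% and 2.71% of all genes were. Ccl4, a chemokine, differed by 2.93 and the cytokine gene Tnf by 1.77. Ccl3 differed by 2.49 but overlapped, with 3.32 on p27 knock-out 2 and -1.85 to -0.27 on the other top arrays against -3.30 to -1.04 on the bottom arrays. The growth factors and ligands that act on macrophages gave 1 of 10 counted, with a median of -0.11 that ran from -0.61 without p27 knock-out 2 to 0.14 without p27 knock-out 4. On the arrays with low Xist 5 of the 10 were counted as lower, where 2.71% of all genes were. Csf1, the ligand of CSF1R, read -0.06, -0.49, -1.70, -0.68 and 0.80 on the top and -1.70, -0.28, -1.42, -0.56 and 0.36 on the bottom arrays. The 2 ranges of Csf1 were almost the same, and its correlation with the marker mean over the 15 arrays was -0.10, a description over arrays that share 1 reference. Il34, the other ligand of CSF1R, differed by -0.29 and the monocyte chemokine gene Ccl2, which was saturated on 6 arrays, by -0.37. The 1 ligand counted was Ccl12, a monocyte chemokine, at 2.73.

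Of the markers of other cell types none was counted, and lists this short would give a count near 0 at the all-gene share of 0.797%. This held for MHC class II and dendritic cell genes (0 of 9), neutrophil and granule genes (0 of 6), lymphocyte genes (0 of 6), mast cell genes (0 of 7), erythroid genes (0 of 6), osteoclast genes (0 of 8) and endothelial genes (0 of 10). Epithelial (0 of 8), neuronal and glial (0 of 15), skeletal muscle (0 of 13) and cartilage genes (0 of 10) gave none as well. The medians of these lists lay between -0.04 and 0.16, and without p27 knock-out 2 that of the neutrophil genes was -0.65. The first 3 genes of each list are named where they were tested. Of blood cell genes, Cd3e and Cd3g of T cells differed by 0.00 and -0.02, S100a8 of neutrophils by 0.15, the MHC class II chains H2-Ab1 and H2-Eb1 by -0.68 and -0.07, the mast cell proteases Cma1 and Mcpt4 by -0.02 and -0.13, and the globin Hba-a1 by 0.09. Of osteoclast genes, Acp5, Ctsk and Mmp9 differed by 0.59, 0.07 and 0.52. Of other tissues, the endothelial receptor Tek differed by 1.04 with overlap, the keratins Krt7, Krt8 and Krt18 by -0.30, 0.09 and 0.12, and the muscle factors Myod1 and Myog by -0.10 and -0.04. The neuronal genes Tubb3, Dcx and Stmn2 differed by -0.32, -0.15 and 0.66, and the cartilage genes Sox9, Col2a1 and Acan by 0.01, 0.45 and -0.15. Single members lay further out, from -1.28 in the neuronal list to 1.05 in the endothelial list. Endothelial genes gave 2 of 10 higher on the p27-lacking arrays (1.59% of all genes) and on the arrays with low Xist (1.98% of all genes). Neutrophil genes gave 3 of 6 lower on the arrays with low Xist, where 2.71% of all genes were. Of the listed genes, only 6 of 15 lymphocyte and 6 of 14 neutrophil genes could be tested, so these counts cover the tested members only.

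**Figure D2:**
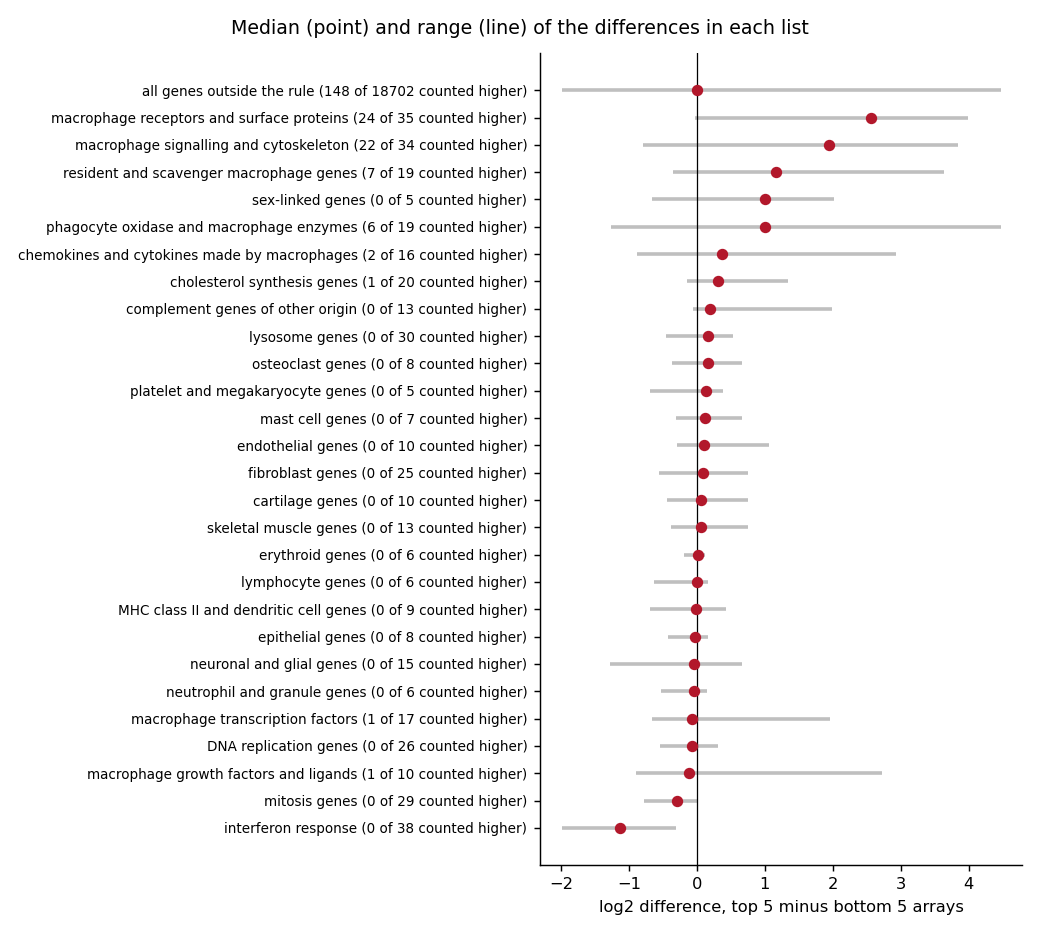
Median (point) and range (line) of the log2 differences between top 5 and bottom 5 arrays (horizontal axis) for each gene list, with the number of tested genes counted as higher in brackets. The macrophage receptor list has its median at 2.56 and the interferon list at -1.14, while the median of all genes is at -0.01.

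Of the 84 counted genes in no list, 79 had a RefSeq symbol. The 10 symbols with the largest difference were Ms4a6b (3.88), Bcl2a1b (3.71), Bcl2a1c (3.32), Itgal (3.13), Stap1 (2.95), Sirpb1a (2.95), Srgn (2.93), Ly86 (2.89), Cd48 (2.86) and Cd300c2 (2.70). Ms4a6b, a membrane protein of the Ms4a family, read 2.89, 1.81, 0.30, 0.02 and -0.79 on the top and -2.38, -2.43, -2.61, -3.79 and -3.95 on the bottom arrays. Bcl2a1b and Bcl2a1c are near-identical members of a family of survival genes, and their probes may share RNA. Itgal encodes a chain of the leukocyte integrin LFA-1, Ly86 a partner of a toll-like receptor relative, and Srgn the granule proteoglycan serglycin. A second probe of Itgal differed by only 0.19. The genes most like the marker mean over the 15 arrays were Myo1f, Cd300c2, Lilrb4a, Vav1 and Folr2, each with a Pearson correlation of 0.99, and 115 of the 148 counted genes had one over 0.9. These correlations describe arrays that share 1 reference and were ranked on the genes' close companions.

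The 1 gene counted as lower was Wfdc2, which encodes a secreted protease inhibitor of epithelia. It read -1.94, -1.47, -1.45, -1.97 and -1.46 on the top and -0.07, 1.86, 0.36, -0.18 and -0.50 on the bottom arrays, a difference of -1.95. The middle arrays did not all lie between the sets, since stathmin knock-out 2 and 3 read -2.43 and -2.65, below every top array. Hmgcs1, an enzyme of cholesterol synthesis and the only one of 20 such genes counted, had values on only 2 top and 2 bottom arrays because outlier spots were left out, and the other Hmgcs1 probes differed by 0.15 and 0.72.

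The stretch of 250 bases before the starts of the counted genes was searched for GAGGAAG on either strand. This is the purine-rich core of sites bound by PU.1. That the counted genes moved together was set by the count rule. The motif was chosen with the ranking in view. A promoter was found in RefSeq (GRCm38.p6) for 109 of the 148 counted genes, and 38 of the 109, or 34.9%, held the motif, against 12.5% of 12126 tested genes with a promoter and 10.6% of all 32851 promoters. The longer form GAGGAAGT, which contains the first, was in 17 of 109 (15.6%), against 2.75% of tested genes and 2.44% of all promoters. A match is a description of the letters and shows no binding. The promoters of 4 genes that hold the motif are printed 5′ to 3′ on the strand of the gene, with the motif or its reverse complement in capitals: Laptm5 as a gene of the rule (chr4:130913066-130913315, + strand), C1qc as a C1q chain outside it (chr4:136892915-136893164, - strand), Fcgr3 as a receptor (chr1:171059404-171059653, - strand) and Vav1 as a signalling gene (chr17:57278850-57279099, + strand).
Laptm5: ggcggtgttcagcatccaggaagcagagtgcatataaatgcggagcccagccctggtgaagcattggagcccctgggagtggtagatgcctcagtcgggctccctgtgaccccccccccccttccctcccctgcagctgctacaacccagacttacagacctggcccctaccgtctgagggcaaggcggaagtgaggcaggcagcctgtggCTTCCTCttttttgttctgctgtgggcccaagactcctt
C1qc: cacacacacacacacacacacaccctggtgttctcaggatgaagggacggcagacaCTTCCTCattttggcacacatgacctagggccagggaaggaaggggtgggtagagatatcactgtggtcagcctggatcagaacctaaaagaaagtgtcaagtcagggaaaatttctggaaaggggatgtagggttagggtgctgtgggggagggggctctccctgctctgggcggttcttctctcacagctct
Fcgr3: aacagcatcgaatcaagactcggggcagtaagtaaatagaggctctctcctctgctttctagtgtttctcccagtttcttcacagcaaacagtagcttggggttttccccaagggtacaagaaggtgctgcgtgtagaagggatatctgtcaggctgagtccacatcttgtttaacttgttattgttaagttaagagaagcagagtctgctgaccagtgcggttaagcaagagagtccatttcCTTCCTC
Vav1: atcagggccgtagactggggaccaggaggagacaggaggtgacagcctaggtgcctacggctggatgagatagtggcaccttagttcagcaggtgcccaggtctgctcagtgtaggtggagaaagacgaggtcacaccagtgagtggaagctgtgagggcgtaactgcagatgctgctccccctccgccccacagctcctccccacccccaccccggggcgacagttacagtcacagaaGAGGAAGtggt
In Fcgr3 and Vav1 the motif began 7 and 11 bases before the start of the gene, in Laptm5 39 and in C1qc 194 bases before it.

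The 5 top arrays were not alike. P27 knock-out 2 was the highest top array for 95 of the 148 counted genes and double knock-out 3 for 47, while p27 knock-out 1 was the lowest for 92 and double knock-out 2 for 41. Against the other 4 top arrays, p27 knock-out 2 had 1047 of 18710 genes at least 1 log2 unit above all of them (5.60%) and 539 below (2.88%). Each of the other 4 had 7 to 194 genes above and 9 to 267 below. Of the 148 genes formed by the rule and the 6 macrophage lists, which are not the 148 counted genes, 46 were above on p27 knock-out 2 and 1 was below. Without p27 knock-out 2, 149 genes and 64 of the 140 macrophage genes were counted as higher, under a rule that is easier to meet with fewer arrays.

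The 2 arrays with the highest marker means differed in which macrophage genes were high. P27 knock-out 2 exceeded double knock-out 3 for some macrophage genes, picked here after their values were seen. The interleukin gene Il1b read 3.07 against -0.91, Ccl3 3.32 against -0.27, the elastase gene Mmp12 3.31 against 0.63 and the scavenger receptor gene Marco 3.87 against -2.50. Other macrophage genes, also picked after their values were seen, were higher on double knock-out 3. The mean of the 19 resident and scavenger genes was nevertheless 1.21 on p27 knock-out 2 and 0.55 on double knock-out 3. C1qc read 0.02 against 1.61, Mrc1 0.44 against 2.56 and Cx3cr1 -0.52 against 1.27. Apoe, the lipid carrier, read -0.20 against 1.61. On p27 knock-out 2 the acute-phase genes that fibroblasts also make were high too, with Lcn2 at 4.60 and C3 at 3.96, where the other top arrays read -3.50 to -2.70 for Lcn2 and -3.59 to -2.23 for C3. The matrix proteoglycans Dcn and Lum read 5.54 and 5.06 there, against at most -0.60 and -1.52 on the other top arrays. Il1b was well above background on only 2 top and 2 bottom arrays. These are values of single arrays with no replicate check, and p27 knock-out 2 was also the only top array with high Xist.

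**Figure D3:**
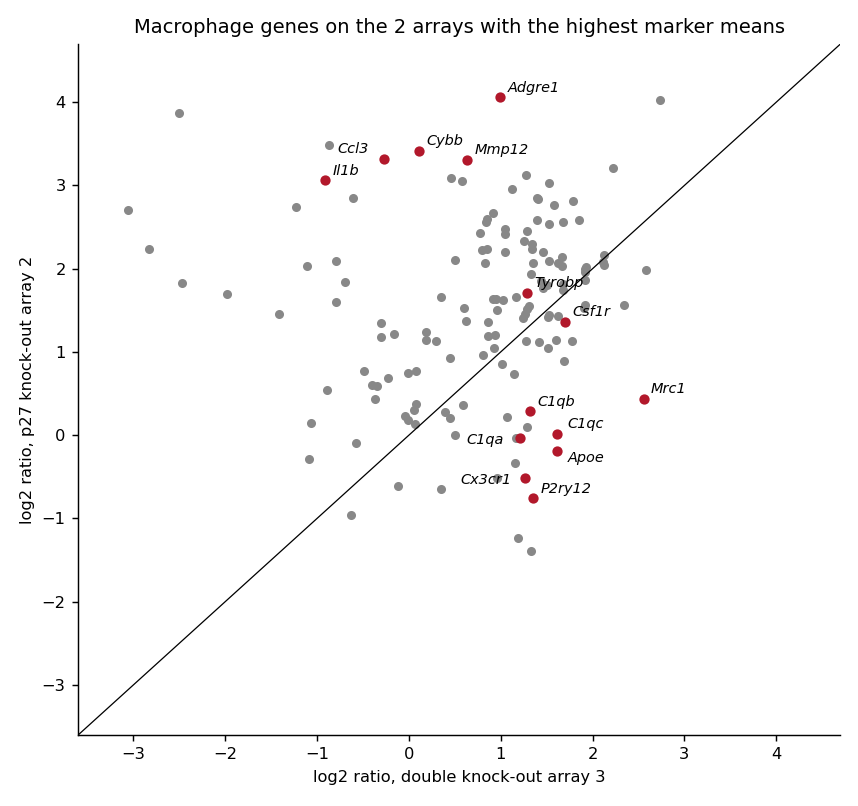
Log2 ratio of sample to reference of each tested macrophage gene on p27 knock-out 2 (vertical axis) against double knock-out 3 (horizontal axis), 1 point per gene, with named genes in red and a line where both arrays are equal. Il1b and Ccl3 lie above the line at 3.07 and 3.32, and Mrc1 and Apoe lie below it.

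Of 38 tested interferon response genes 0 were counted, because the sets overlapped. All 38 had a difference below 0, where 9564 of 18702 genes did. The median of the 38 was -1.14, and these genes did not follow the ranking in order. Isg15, a ubiquitin-like protein made in response to interferon, read 0.45, -2.73, -1.10, -1.32 and -1.59 on the top and -1.0, 1.38, -2.06, 0.79 and 1.85 on the bottom arrays. The mean of the 38 genes was 1.08, -1.83, -1.0, -1.25 and -1.85 on the top arrays in rank order and -1.21, 1.42, -1.64, 0.38 and 1.75 on the bottom arrays. It was above 0 on 3 of 5 bottom arrays, on 1 of 5 top arrays and on 0 of 5 middle arrays. With 1 array left out the median difference ran from -0.78 without p27 knock-out 3, where 2 genes were above 0, to -1.66 without p27 knock-out 2. It was -2.12 within the p27-lacking arrays, where 6 of 38 genes were counted as lower (1.01% of all genes). On arrays with low Xist it was -2.98, and 37 of 38 were counted as lower (2.71% of all genes). The only bottom arrays with low Xist were stathmin knock-out 4 and p27 knock-out 3. Their interferon means, 1.42 and 1.75, were the highest of the series, so this value rests on them. On slides 1, 3 and 4 it was -1.08, -3.05 and -2.86. The part of these genes in the macrophage differences was not tested, and the array with the highest interferon mean, p27 knock-out 3, had the lowest marker mean.

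**Figure D4:**
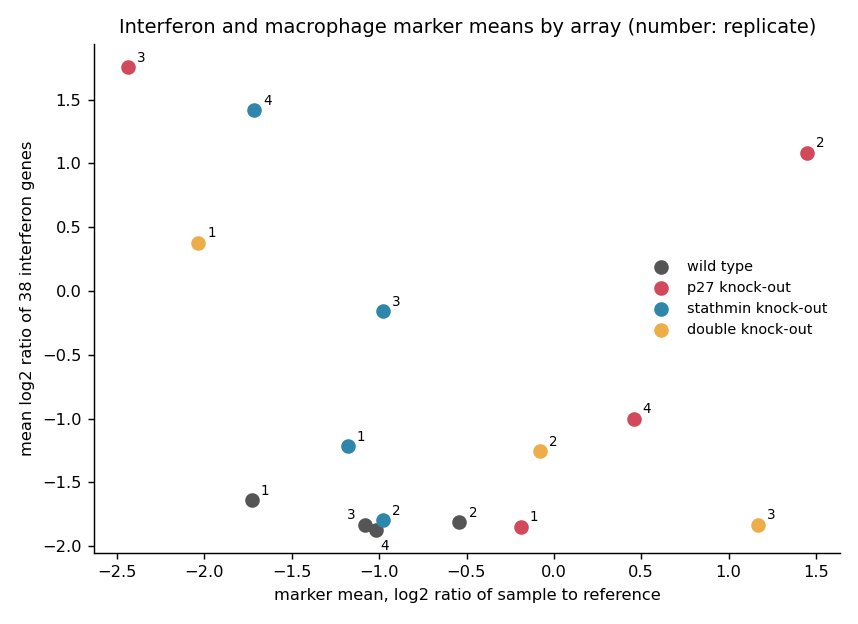
Mean log2 ratio of 38 interferon response genes (vertical axis) against the marker mean (horizontal axis), 1 point per array, coloured by genotype and numbered by replicate. P27 knock-out 3 lies at the upper left (1.75 at -2.44) and p27 knock-out 2 at the upper right (1.08 at 1.45).

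Mitosis genes had 28 of 29 differences below 0, where 9564 of 18702 genes did. The median of the mitosis genes was -0.30, and 0 of 29 were counted. Without p27 knock-out 2 their median was -0.14, with 8 above 0, and without p27 knock-out 3 it was also -0.14, with 8 above 0, so the near-uniform direction rested on these arrays. The median was -0.19 without p27 knock-out 1, -0.50 without p27 knock-out 4 and -0.51 without stathmin knock-out 4. On the p27-lacking arrays it was -0.64, with 0 above 0 and 2 of 29 counted as lower (1.01% of all genes). On the arrays with low Xist it was -0.06, with 11 above 0 and 0 of 29 counted. DNA replication genes gave 0 of 26 counted and a median of -0.07 that ran from -0.19 without stathmin knock-out 4 to 0.12 without p27 knock-out 2. Cholesterol synthesis genes had 18 of 20 above 0, where 9137 of 18702 genes were. The median of the 20 was 0.31. It was 0.14 without stathmin knock-out 4, 0.18 without p27 knock-out 4 and 0.49 without stathmin knock-out 1. On the p27-lacking arrays 1 of 20 was counted as higher, where 1.59% of all genes were. On the arrays with low Xist 12 of 20 were counted as higher, where 1.98% of all genes were. The only bottom arrays with low Xist, stathmin knock-out 4 and p27 knock-out 3, had the lowest cholesterol list means of the series, -1.06 and -0.67.

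The genotype comparisons use groups that the ranking did not choose, and they asked whether macrophage genes differed between each knock-out and wild type. They covered the same 148 rule and macrophage-list genes within a fit over all genes, tested by limma with Benjamini-Hochberg adjustment at an adjusted p under 0.05. In p27 knock-out, 0 of 148 were called (all genes 0 of 18681, 0%), although 130 of 148 had a difference above 0, against 9874 of all genes. The median was 0.75, against 0.02 over all genes. At an unadjusted p under 0.05 there were 2 of the 148 and 1064 of all genes. In stathmin knock-out 0 of 148 were called (all genes 1 of 18688, 0.00535%). Of the 148, 49 were above 0, against 9746 of all genes. The median was -0.15, against 0.01 over all genes. An unadjusted p under 0.05 was found for 3 of the 148 and 882 of all genes. In double knock-out 0 of 148 were called (all genes 0 of 18688, 0%). Of the 148, 126 were above 0, against 9248 of all genes. The median was 0.57, against -0.003 over all genes. An unadjusted p under 0.05 was found for 1 of the 148 and 437 of all genes. The 1 gene called among all was Rpl11, a ribosomal protein gene, at -1.67 in stathmin knock-out (limma adjusted p = 0.0178). The 3 comparisons share the wild type arrays. These p-values take the arrays of a genotype as replicates, as the labels do.

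The spread within genotypes was as large as these differences. Adgre1 was -0.84 ± 3.90 in p27 knock-out (SD, n = 4) and -2.55 ± 0.87 in wild type (n = 4), a limma difference of 1.71 with a 95% interval from -1.79 to 5.22 and an adjusted p of 0.834. Its within-slide differences ran from -2.96 to 5.68. Tyrobp differed by 0.95 in p27 knock-out (interval -1.19 to 3.09, limma adjusted p = 0.844), by -0.32 in stathmin knock-out (-2.46 to 1.82, adjusted p = 0.974) and by 0.60 in double knock-out (-1.71 to 2.92, adjusted p = 1.00). Intervals this wide leave differences of several fold in either direction undetectable at this number of arrays.

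Among the 148 genes, the 3 with the smallest p are named for each comparison. In p27 knock-out they were Arhgdib, at -0.86 (SE 0.301), Gpnmb, a lysosomal glycoprotein, at 1.54 (SE 0.600), and the lipase gene Lpl at 1.35 (SE 0.633), each with a limma adjusted p of 0.796. In stathmin knock-out they were the transcription factor gene Runx3 at 1.31 (SE 0.359, 4 of 4 arrays above every wild type array), the growth factor gene Gas6 at 1.24 (SE 0.523) and the nucleotide receptor gene P2ry6 at 1.27 (SE 0.547), each with a limma adjusted p of 0.910. In double knock-out they were Arhgdib at -0.81 (SE 0.325), Lyn at 0.88 (SE 0.413) and the chemokine gene Ccl8 at 1.29 (SE 0.611), each with a limma adjusted p of 1.00.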

How the data were processed

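The 2-colour Agilent arrays measured sample RNA (Cy5) against a pooled reference (Cy3). The intensity values are the mean and background signals the authors deposited as scanner output, made by Agilent Feature Extraction without background subtraction per the file headers. Per the file headers, the LogRatio column is the log10 of red over green. The authors' deposited log2 ratios, sample over reference, were used for the ranking, and their normalization is not given in the sources used here.

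Intensities were corrected with normexp (offset 50) and loess in limma 3.58.1 (R 4.3.3), without control and outlier spots. A probe was tested where 3 or more arrays of a genotype had the sample well above background (27700 probes), and each gene took its brightest probe (18710 genes). Names came from RefSeq (GRCm38.p6), or for 3571 probes from the files. Genotypes were compared with limma over all 15 arrays, 2-sided, with Benjamini-Hochberg adjustment, and the scripts were tested on simulated data. At-least folds set the bright group's mean against the lowest signal well above background. The number of arrays limits the precision.

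Members and lists were chosen with earlier results of these data known. Named genes are the 8 rule genes, up to 5 counted genes per list with the largest difference, the 10 largest outside the lists in each direction, the first 3 markers of other cell types, the 5 genes most like the marker mean, and in genotype comparisons the genes called and the 3 with the smallest p. Other genes named were chosen after their values were seen. Some genes are not reported here.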

Additional observations from a re-analysis of the deposited data

Results flagged for a closer look

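In 37 values over the 3 genotypes with 4 arrays, 111 groups were checked for an array far from the others, and chance picks about 1 group in 20. Flags fell on 6 of the 111 groups, near the share that chance picks, so the items below are descriptions only. C1qb was far lower on p27 knock-out 3, at -2.89, than on the other p27 knock-outs (0.06 to 0.65). C1qb was also far lower on stathmin knock-out 4, at -2.81, than on the other stathmin knock-outs (-1.23 to -1.17). C1qb is a gene of the rule, so these values helped to place both arrays in the bottom set. The mean of the macrophage growth factor and ligand genes was -1.46 on stathmin knock-out 1, against 0.18 to 0.48 on the others of its genotype. The epithelial mean was -0.78 on stathmin knock-out 2, against -0.20 to -0.17. The mean of complement genes outside the C1q group was 1.93 on p27 knock-out 2, against -0.97 to -0.55 on the other p27 knock-outs. The mean of 5 sex-linked genes was -3.46 on the same array, against -0.18 to 0.16.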

How the results depend on the processing

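The count of 148 genes higher on the top arrays stayed within 1.5 times under 22 of 29 alternatives, and the macrophage count of 62 under 28 of 29. Some of these could not move the counts. Ranking by scanner ratios or with 1 value per gene chose the same arrays, and averaging wild type 3 and 4 changed only middle arrays. The count of higher genes was 88 with only probes well above background on all 15 arrays, 30 with the top 7 against the bottom 7, 371 on arrays with low Xist and 504 and 355 with genotype or slide as a term, counted by size alone. The macrophage count was 13 with 7 against 7. The count of lower genes was 4 with the authors' ratios, 2 in the sample channel, 14 with 4 against 4, 0 with 7 against 7, 507 with low Xist, and 418 and 329 with genotype or slide as a term. Of 2 alternatives chosen after seeing the data, size alone gave 262 higher and 92 lower, and p27-lacking arrays alone 297 and 189. Fewer arrays make non-overlap easier, and size alone drops it; otherwise the cause was not tested. Leaving out 1 array gave 149 to 196 higher, 2 to 18 lower and 62 to 70 macrophage genes. The lower count was 18 without p27 knock-out 2, 10 without stathmin knock-out 1, 9 without stathmin knock-out 4 and 8 without p27 knock-out 4.

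The genotype comparisons called 0 macrophage genes under all alternatives run, with smallest limma adjusted p from 0.292 to 0.999 for p27, 0.41 to 1 for stathmin and 0.682 to 1 for double knock-out. Same-numbered arrays were not shown to pair, since 12 of 21 pairs correlated over 0.1 (range -0.33 to 0.42). With the replicate number as a block, limma called 0 macrophage genes as well, with smallest adjusted p of 0.533, 0.41 and 0.988. Dim probes, and the number of arrays, limit the low end of the differences.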
